A study of Homo sapiens with 24 samples.

Results

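The 10 genes described here encode enzymes that build purine nucleotides from simple precursors. PRPS2 makes the sugar phosphate PRPP, PPAT, GART, PFAS, PAICS, ADSL and ATIC carry PRPP through to inosine monophosphate (IMP), and IMPDH1, IMPDH2 and GMPS take IMP on to guanosine monophosphate. Members were chosen by pathway, with earlier results of these data known, and no measured value entered the rule: every probe of an Illumina expression beadchip whose platform annotation names one of these genes was taken. The array held 47322 probes, of which 18 named a member, and 17 of those were above background on all 3 arrays of at least 1 group. All 10 members therefore had a measurement, among 10246 genes in all, and all 10 were represented by a probe detected on every one of the 24 arrays. The remaining probe, another one for IMPDH1, was detected on no array and was not used.

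RNA came from P493, a human B cell line that carries a MYC transgene shut off by tetracycline. In 4 groups the cells had no MST-312 and in the other 4 they had MST-312, a small molecule that inhibits telomerase, and each treatment was taken at 0, 4, 8 and 24 h of release, with 3 arrays a group. For MST-312 the series describes 48 h with the compound and tetracycline followed by fresh medium without tetracycline that still held MST-312 (TET in the series' wording). When the untreated cells had tetracycline is not stated, and an effect of that schedule and one of MST-312 cannot be told apart. All groups share 1 cell line with 1 transgene, and the replicates are numbered but not said to be separate cultures, so the p-values measure only the spread between these arrays, which may be technical.

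De novo purine synthesis starts when PPAT commits PRPP to the pathway, and the ring is then assembled on the sugar phosphate step by step by enzymes that include multifunctional proteins. Proliferating lymphocytes depend heavily on the pathway, and IMPDH is the target of immunosuppressive drugs such as mycophenolic acid. Several genes of the pathway are known targets of MYC, which binds DNA as a dimer with MAX at E-box motifs.

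Between 16254 and 17959 probes were detected per array. Levels below are log2 normalised intensities, and they may be set against each other only for the same probe, since probes differ in brightness for reasons other than transcript abundance. Among B cell markers, CD79A, CD79B, CD74, MS4A1 and CD22 were detected on all 24 arrays and PAX5 was detected on none. Summed marker intensities lay between 34016 and 82908 for B cells, 85 and 182 for T cells, 265 and 1027 for monocytes, and 152 and 1233 for epithelial cells and fibroblasts, where EPCAM was detected on every array. Of 6 markers in each of these lists, 2, 3 and 2 passed the detection filter: CD2 and CD3G (on 13 and 8 arrays), CD14, LYZ and FCGR3A (on 24, 22 and 20), and EPCAM and COL1A1 (on 24 and 10). CD3E, CD4 and S100A9 were detected on none. Their part in the results was not tested. In bulk RNA, fewer cells of a type and less RNA per cell cannot be told apart. MYC itself, the switched gene, rose in untreated cells from 14.06 ± 0.11 (SD, n = 3) at 0 h to 14.995 ± 0.051 at 8 h. It stood at 14.76 ± 0.17 in untreated cells at 24 h. In treated cells MYC rose from 13.83 ± 0.056 at 0 h to 15.14 ± 0.16 at 24 h. At 24 h MYC was higher with MST-312 by 0.38 (adjusted p = 0.00334, limma), as 28.9% of all genes were called higher.

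All 10 genes rose after release in both treatments. In untreated cells 8 of 10 were higher at 4 h than at 0 h and all 10 at 8 h and at 24 h, where the median change was 1.19 on the log2 scale with a range from 0.84 for IMPDH1 to 1.98 for PFAS. A gene counts as changed here where the adjusted p of limma, corrected over all 10246 genes, was below 0.05. Of all genes, 22.8% were called higher at 4 h, 24.8% at 8 h and 29% at 24 h, and the median change over all genes at 24 h was -0.025. With MST-312, 7 of 10 were higher at 4 h and all 10 at 8 h and 24 h, against 18.1%, 18.9% and 24.5% of all genes, with a median change of 0.93 at 24 h. GMPS and IMPDH1 were the members not called at 4 h in untreated cells, and PRPS2, GART and IMPDH2 those not called at 4 h in treated cells.

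**Figure D1:**
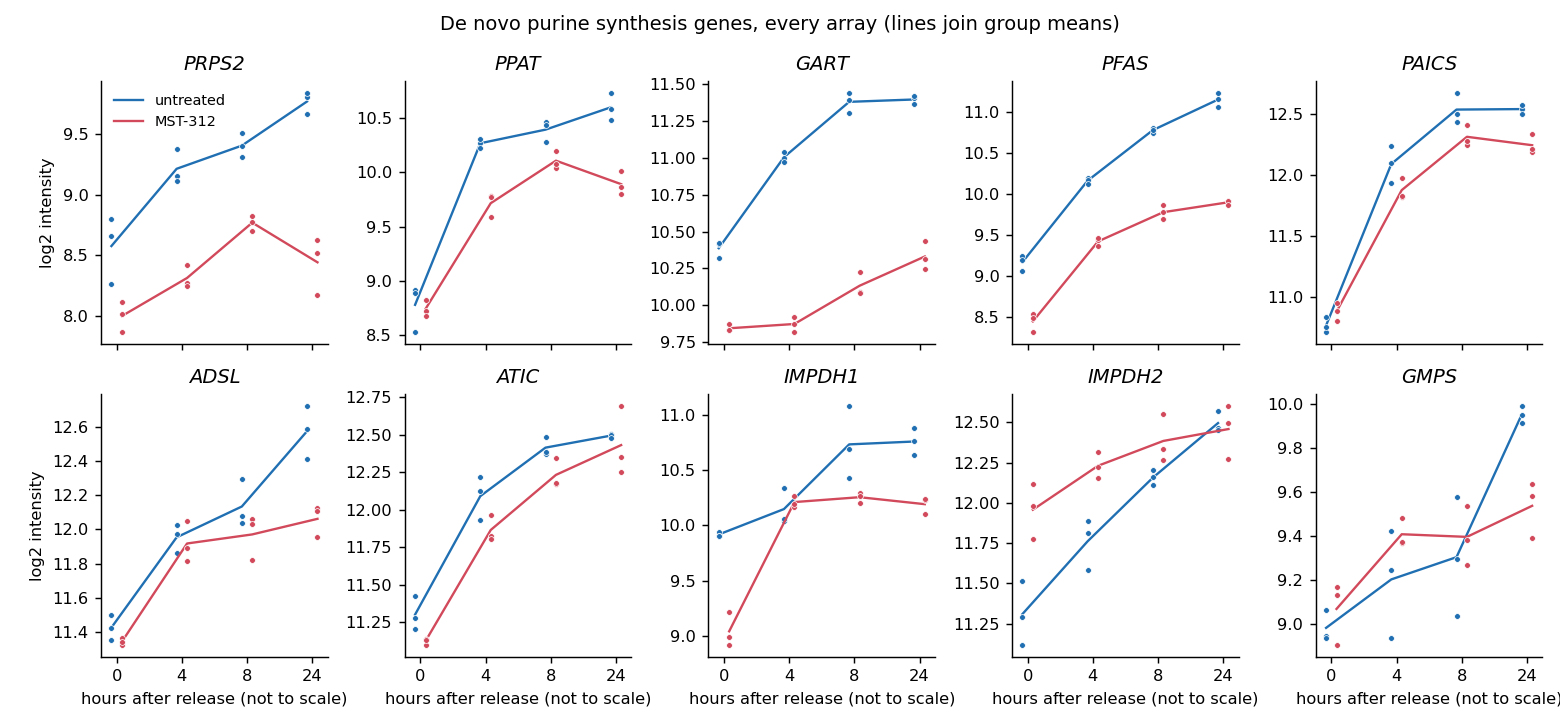
Normalised log2 intensity (vertical axis) of each gene against hours after release (horizontal axis, time points evenly spaced and not to scale); each point is 1 array and lines join the means of 3 arrays, blue for untreated and red for MST-312. The untreated line ends above the MST-312 line by 1.33 for PRPS2 and 1.25 for PFAS at 24 h, while for IMPDH2 and ATIC both lines end close together.

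With MST-312 more of the genes were called lower at later times. At 0 h, 4 of 10 were lower and 1 was higher than in untreated cells, against 31.7% and 27.6% of all genes. At 4 h, 5 were lower and 1 higher (32.9% and 26.5% of all genes), at 8 h 6 were lower and none higher (32.2% and 25.6%), and at 24 h 8 were lower and none higher (32.9% and 28.9%). The median difference over the 10 genes went from -0.13 at 0 h to -0.54 at 24 h, where the median over all genes was -0.028. Large shares of all genes differed between the treatments in either direction (59.3%, 59.4%, 57.7% and 61.8% at 0, 4, 8 and 24 h). The 5 members called at 0 h were close to the share at that time, as were those called at 4 h and at 8 h. At 24 h the 8 members called were all lower, while the calls over all genes were split. Within a treatment, the comparisons of 4, 8 and 24 h with 0 h share their 0 h arrays.

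**Figure D2:**
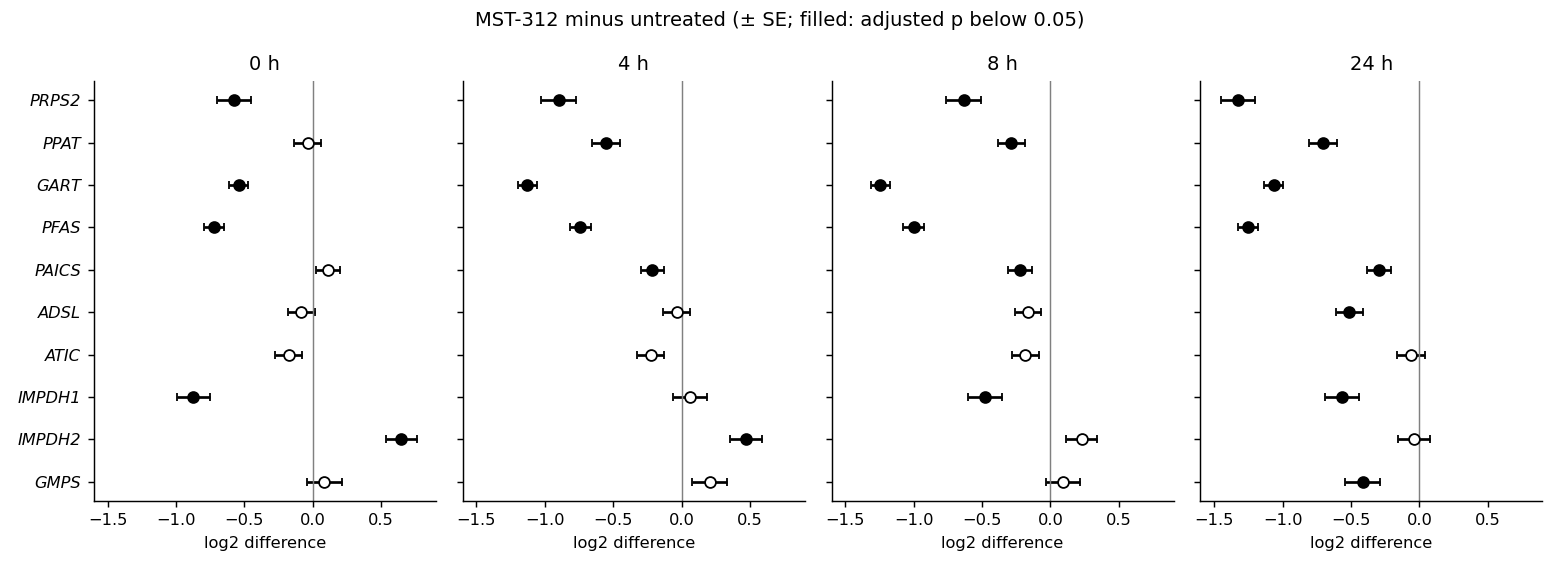
Difference in log2 intensity between MST-312 and untreated cells (horizontal axis) for each gene (vertical axis) at 4 release times; points are differences of means of 3 arrays, bars are ± SE from the limma fit, and filled points have an adjusted p below 0.05. The points for GART and PFAS lie left of 0 at every time, those for IMPDH2 lie right of 0 at 0 and 4 h, and ATIC is open in all 4 panels.

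PRPS2, 1 of the human enzymes that make PRPP and so supply the whole pathway, had the largest difference at 24 h. Its gene lies on chrX:12791412-12824222 (GRCh38.p14). In untreated cells the 3 arrays read 8.66, 8.80 and 8.27 at 0 h and 9.66, 9.81 and 9.84 at 24 h, and with MST-312 they read 8.11, 8.02 and 7.87 at 0 h and 8.18, 8.63 and 8.52 at 24 h. The treated arrays were below every untreated array at each of the 4 times. The difference was -0.58 ± 0.13 (SE) at 0 h, -0.90 at 4 h, -0.64 at 8 h and -1.33 ± 0.13 at 24 h (adjusted p = 0.000583, 3.86e-06, 0.000237 and 1.65e-08). Untreated PRPS2 rose by 1.19 over 24 h and treated PRPS2 by 0.44, and the difference between these rises was -0.75 ± 0.18 (adjusted p = 0.00356). Ordered by level, the treated groups at 0, 4 and 24 h came first and the untreated groups at 4, 8 and 24 h last; treated cells at 24 h overlapped both treated cells at 4 h and untreated cells at 0 h. The second PRPS2 probe gave -1.29 ± 0.094 at 24 h (adjusted p = 4.08e-10).

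PPAT, the amidophosphoribosyltransferase of the committed step, separated between the treatments from 4 h on. At 0 h the untreated arrays read 8.92, 8.89 and 8.53 and the treated ones 8.82, 8.72 and 8.68, which overlapped. At 4 h they read 10.27, 10.31 and 10.23 without and 9.78, 9.77 and 9.59 with MST-312, and at 24 h 10.73, 10.58 and 10.48 without and 10.01, 9.80 and 9.86 with it. From 4 h on no treated array reached an untreated one. The difference was -0.038 at 0 h (95% interval -0.25 to 0.17), -0.55 ± 0.10 at 4 h, -0.29 ± 0.10 at 8 h and -0.71 ± 0.10 at 24 h (adjusted p = 0.762, 8.08e-05, 0.0199 and 4.02e-06). The rise in untreated cells was 1.49 by 4 h and 1.81 by 24 h, higher than for 99.2% of all genes at 24 h, and in treated cells 0.97 and 1.15. The rises differed by -0.51 ± 0.14 at 4 h and by -0.67 ± 0.14 at 24 h, MST-312 minus untreated (adjusted p = 0.0127 and 0.00137).

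PAICS, whose protein carboxylates the intermediate AIR and adds aspartate to it, lies head to head with PPAT on chromosome 4, PPAT at chr4:56393362-56435615 on the minus strand and PAICS running the other way from a shared promoter region, with further PAICS starts on either side. Their RefSeq start sites are 137 bases apart and the promoter windows, 250 bases before to 50 after each start, share 236 bases. The sequences below are the 3 member windows that hold CACGTG, the E-box motif, which is in capitals. It reads the same on both strands, and the copy in the PPAT window, 182 bases before the start, and the copy in the PAICS window, 40 bases after it, are 1 site at chr4:56435792-56435797. The window of ATIC, the enzyme of the last steps to IMP, holds 2 copies, 46 bases before and 29 bases after the start, the second at chr2:215312088-215312093.
PPAT, chr4:56435566-56435865, minus strand: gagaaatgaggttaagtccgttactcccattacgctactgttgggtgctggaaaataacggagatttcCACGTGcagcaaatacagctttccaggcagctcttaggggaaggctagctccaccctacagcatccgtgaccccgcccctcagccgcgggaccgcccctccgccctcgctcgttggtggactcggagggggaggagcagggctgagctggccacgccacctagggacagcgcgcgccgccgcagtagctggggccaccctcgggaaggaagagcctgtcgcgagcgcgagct
PAICS, chr4:56435502-56435801, plus strand: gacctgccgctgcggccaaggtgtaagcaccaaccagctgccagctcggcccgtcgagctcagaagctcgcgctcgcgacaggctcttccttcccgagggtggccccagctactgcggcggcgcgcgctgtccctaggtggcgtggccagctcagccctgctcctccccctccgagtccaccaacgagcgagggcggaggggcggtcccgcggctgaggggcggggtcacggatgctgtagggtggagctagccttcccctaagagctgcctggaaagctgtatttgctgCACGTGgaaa
ATIC, chr2:215311809-215312108, plus strand: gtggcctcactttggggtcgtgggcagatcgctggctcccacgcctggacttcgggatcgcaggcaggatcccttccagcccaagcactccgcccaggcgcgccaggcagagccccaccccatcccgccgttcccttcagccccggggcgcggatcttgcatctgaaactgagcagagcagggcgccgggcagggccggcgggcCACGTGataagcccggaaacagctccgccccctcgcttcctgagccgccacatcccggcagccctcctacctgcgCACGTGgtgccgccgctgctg

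Windows from RefSeq (GRCh38.p14) were found for 8 of the 10 genes, 12 windows in all, and 3 windows of 3 genes held CACGTG. Of all 35116 RefSeq windows, 7.26% hold it, and over all 27305 genes 8.77% have a copy in any window. The letters are not in the windows searched for PRPS2, GART, PFAS, IMPDH1 and GMPS. Rises over 24 h in the genes with the motif were 1.815 (PPAT), 1.77 (PAICS) and 1.20 (ATIC) in untreated cells. With MST-312 they were 1.15, 1.36 and 1.31. In the searched genes without it, untreated rises were 1.19 (PRPS2), 1.01 (GART), 1.98 (PFAS), 0.84 (IMPDH1) and 0.97 (GMPS). Their treated rises were 0.44, 0.49, 1.45, 1.145 and 0.47. Whether the motif goes with the rise was not tested. A match is a description of the sequence, and binding was not measured.

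PAICS read 10.72, 10.84 and 10.75 in untreated cells at 0 h and 12.55, 12.50 and 12.58 at 24 h, and 10.95, 10.89 and 10.81 rising to 12.34, 12.19 and 12.21 with MST-312. The treatments overlapped at 0 h and were apart at 24 h, with all treated arrays lower. The rise over 24 h was 1.77 ± 0.086 without and 1.36 ± 0.086 with MST-312, a difference of -0.41 ± 0.12 (adjusted p = 0.015). Treated cells were lower by a small step at 4 h (-0.21), 8 h (-0.22) and 24 h (-0.30 ± 0.086, adjusted p = 0.00543). A second bright PAICS probe gave -0.23, -0.31 and -0.32 at these times and was higher with MST-312 at 0 h by 0.22 (adjusted p = 0.0446). The last PAICS probe, a dim one, changed by 0.40 in untreated cells at 24 h (adjusted p = 0.114) and by 0.021 in treated cells (adjusted p = 0.947).

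PFAS, which turns FGAR into FGAM with nitrogen from glutamine, had the largest rise of the 10 genes over 24 h in both treatments and was lower with MST-312 at every time. Its arrays read 9.07, 9.25 and 9.20 at 0 h and 11.16, 11.07 and 11.24 at 24 h in untreated cells. With MST-312 they read 8.54, 8.33 and 8.49 at 0 h and 9.92, 9.92 and 9.87 at 24 h. No treated array overlapped an untreated one at any of the 4 times, and untreated cells at 4 h already stood above treated cells at 24 h. The difference was -0.72 ± 0.075 at 0 h, -0.74 at 4 h, -1.0 at 8 h and -1.25 ± 0.075 at 24 h (adjusted p = 5.56e-08, 3.91e-08, 5.42e-10 and 1.22e-11). By 24 h PFAS had risen by 1.98 ± 0.075 without and by 1.45 ± 0.075 with MST-312. At 4 h these rises differed by -0.019 (95% interval -0.24 to 0.20) and at 24 h by -0.53 ± 0.11 (adjusted p = 0.000766).

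GART, whose full-length protein has 3 activities of the pathway and whose shorter known product keeps 1 of them, differed between its probes. The brightest probe stood for the gene. It read 10.42, 10.42 and 10.32 in untreated cells at 0 h, 10.997, 10.973 and 11.037 at 4 h and 11.36, 11.40 and 11.42 at 24 h. With MST-312 it read 9.83, 9.87 and 9.83 at 0 h, 9.92, 9.88 and 9.82 at 4 h and 10.44, 10.31 and 10.24 at 24 h. Treated arrays were lower at every time without overlap, and treated cells at 24 h only reached the level of untreated cells at 0 h. The difference was -0.54 ± 0.069 at 0 h, -1.13 at 4 h, -1.25 at 8 h and -1.06 ± 0.069 at 24 h (adjusted p = 8.65e-07, 2.01e-11, 5.67e-12 and 3.94e-11). In the first 4 h this probe rose by 0.62 in untreated cells and changed by 0.029 in treated cells (95% interval -0.11 to 0.17).

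The second GART probe, which the annotation assigns to another RefSeq transcript, moved the other way with treatment. At 4 h the untreated arrays read 9.92, 9.92 and 9.51 and the treated ones 10.61, 10.48 and 10.56, so all treated arrays were higher. Its difference in the fit over all probes was 0.45 ± 0.13 before release and 0.77, 0.50 and 0.28 at 4, 8 and 24 h (adjusted p = 0.00696, 5.14e-05, 0.00365 and 0.0773). It rose by 1.19 in untreated and by 1.51 in treated cells in the first 4 h. The remaining probe, of the same annotated transcript, was detected on 11 of 24 arrays and was called in no comparison between the treatments. The log2 ratio of the brightest to the second probe, taken within each array, changed with MST-312 by -0.99 at 0 h, -1.90 at 4 h, -1.74 at 8 h and -1.35 at 24 h (adjusted p = 3.88e-05, 4.36e-09, 1.62e-08 and 5.9e-07). Among the 2603 genes with more than 1 kept probe, 19.2%, 24.1%, 20.2% and 19.1% had such a ratio called in either direction. The ratio test was chosen after the probes' values were seen, and it shows unequal change, not which transcript changed, since the files do not place the probes on the gene at chr21:33503931-33542893. With the mean of the kept probes in place of the brightest, GART differed by 0.065, -0.014 and -0.23 at 0, 4 and 24 h (adjusted p = 0.646, 0.924 and 0.0919). At 8 h GART stayed called lower with this mean. Its rises then differed by -0.08, -0.34 and -0.29 at 4, 8 and 24 h (adjusted p = 0.785, 0.151 and 0.189). The mean includes the dim remaining probe, which passed the detection filter only through treated cells at 4 h.

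**Figure D3:**
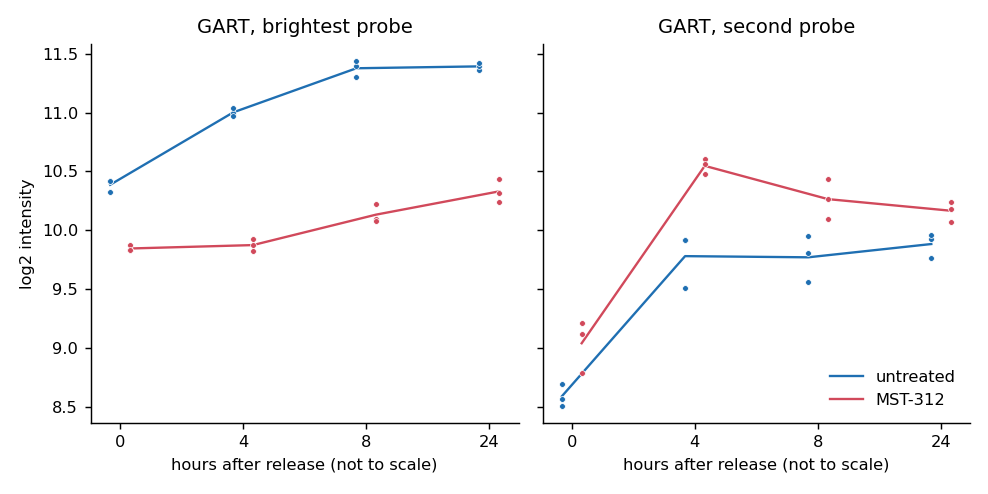
Normalised log2 intensity (vertical axis) of 2 GART probes against hours after release (horizontal axis, time points evenly spaced and not to scale); each point is 1 array and lines join the means of 3 arrays, blue for untreated and red for MST-312. With the brightest probe the red line is lower at all 4 times, and with the second probe it is higher, by 0.77 at 4 h.

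ADSL, which acts both on the way to IMP and in the branch from IMP to AMP, was lower with MST-312 at 24 h, and its calls at earlier times depended on the normalization. At 24 h the untreated arrays read 12.72, 12.41 and 12.59 and the treated ones 12.12, 11.96 and 12.11, with no overlap. The difference was -0.51 ± 0.096 (adjusted p = 0.000105), against -0.083, -0.037 and -0.16 at 0, 4 and 8 h (adjusted p = 0.479, 0.765 and 0.153). With median scaling these were -0.30, -0.34 and -0.51 (adjusted p = 0.0372, 0.0168 and 0.000794), all called lower, and with cyclic loess ADSL was called lower at 0 and 8 h, by -0.25 and -0.23 (adjusted p = 0.0186 and 0.0309). ADSL rose by 1.15 without and 0.72 with MST-312 over 24 h, a difference of -0.43 ± 0.14 (adjusted p = 0.0213).

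ATIC was not called in any comparison between the treatments. Untreated arrays read 11.42, 11.28 and 11.20 at 0 h and 12.51, 12.50 and 12.48 at 24 h, and treated ones 11.10, 11.14 and 11.13 at 0 h and 12.69, 12.35 and 12.25 at 24 h. The treated arrays were lower at 0 h without overlap, and at 24 h they lay on both sides of the untreated ones. The rise over 24 h was 1.20 ± 0.10 without and 1.31 ± 0.10 with MST-312. The rises differed by 0.11 (95% interval -0.18 to 0.41, adjusted p = 0.594), so a loss of the size seen for PPAT lies outside the interval. The call depended on the processing at 4 h, where the difference was -0.23 (adjusted p = 0.0589) and passed the threshold under 7 of the 10 alternatives, and with median scaling or cyclic loess ATIC was called lower at all 4 times.

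IMPDH1 and IMPDH2 encode isozymes for the same rate-limiting step towards guanine nucleotides, and they differed in opposite directions before release. At 0 h IMPDH1 read 9.94, 9.91 and 9.91 in untreated and 8.99, 9.22 and 8.92 in treated cells, while IMPDH2 read 11.52, 11.29 and 11.12 in untreated and 12.12, 11.98 and 11.78 in treated cells. The arrays did not overlap for either gene. IMPDH1 differed by -0.87 ± 0.12 and IMPDH2 by 0.65 ± 0.12 (adjusted p = 3.82e-06 and 6.23e-05).

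After release the difference in IMPDH2 narrowed. It was 0.47 ± 0.12, 0.23 and -0.038 at 4, 8 and 24 h (adjusted p = 0.00158, 0.0997 and 0.796), and at the last time untreated cells averaged 12.50 and treated cells 12.46. IMPDH2 rose by 1.19 without and 0.50 with MST-312, and the rises differed by -0.69 ± 0.16 (adjusted p = 0.00334). With median scaling the call at 4 h was lost, at 0.13 (adjusted p = 0.478).

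IMPDH1 in treated cells rose by 1.16 ± 0.12 within 4 h, from the 0 h values above to 10.27, 10.17 and 10.20, and met the untreated arrays, which read 10.34, 10.04 and 10.06. Its rise in untreated cells by then was 0.23 (adjusted p = 0.142), and the rises differed by 0.93 ± 0.17 (adjusted p = 0.000595), the only member whose rise was larger with MST-312 by this test at any time. At 8 h and 24 h treated cells were again lower, with differences of -0.48 and -0.57 (adjusted p = 0.00247 and 0.000493). The other 2 kept IMPDH1 probes, much dimmer, were not called between the treatments at any time. The ratio of the brightest to the next probe changed by -0.95, 0.144, -0.395 and -0.77 at 0, 4, 8 and 24 h (adjusted p = 0.00122, 0.674, 0.182 and 0.00642). Such a ratio was called for 19.2%, 24.1%, 20.2% and 19.1% of the genes with more than 1 kept probe. With the mean of the kept probes the difference between the rises at 4 h was 0.26 (adjusted p = 0.236), and the treatments differed by -0.19 at 8 h and -0.23 at 24 h (adjusted p = 0.133 and 0.0625), none of them called.

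GMPS, which aminates XMP to GMP, rose by small amounts before 24 h. At 24 h the untreated arrays read 9.99, 9.95 and 9.91 and the treated ones 9.64, 9.39 and 9.58, all lower. The difference was -0.41 ± 0.13 (adjusted p = 0.00782), and at 0, 4 and 8 h it was 0.085, 0.21 and 0.092 (adjusted p = 0.585, 0.173 and 0.56). GMPS rose by 0.97 without and 0.47 with MST-312 over 24 h. The rises differed by -0.50 ± 0.18 (adjusted p = 0.0413). That call was lost with median scaling, at -0.54, and with no detection filter, at -0.50 (adjusted p = 0.0917 and 0.0734).

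The rise over 24 h was smaller with MST-312 for 8 of the 10 genes by the test of the difference, against 15.4% of all genes, and larger for none, against 14.5%. The median difference of rises was -0.51, with -0.007 over all genes. At 8 h, GART was the 1 member called lower (10.1% of all genes in each direction), while with the mean of the kept probes it was PAICS, by -0.52 (adjusted p = 0.0158), and at 4 h PPAT and GART were called lower and IMPDH1 higher (11.5% and 11.3% of all genes). ATIC and IMPDH1 were the members not called at 24 h.

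**Figure D4:**
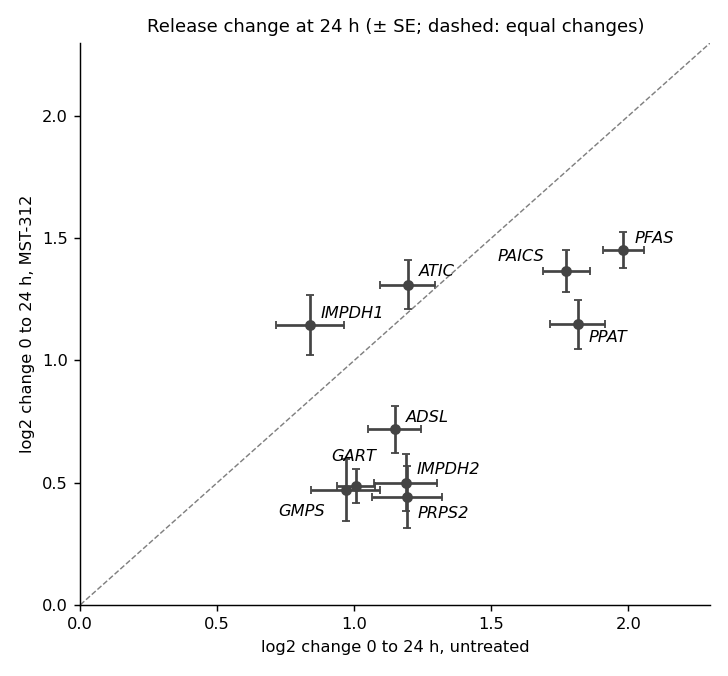
Change in log2 intensity from 0 to 24 h in MST-312 cells (vertical axis) against the change in untreated cells (horizontal axis) for each gene; points are differences of means of 3 arrays, bars are ± SE and the dashed line marks equal changes. ATIC and IMPDH1 lie above the line, and the other 8 genes lie below it, PRPS2 farthest at 0.44 against 1.19.

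Several calls near the threshold depended on single arrays. PAICS at 4 h, -0.21 (adjusted p = 0.038), was lost without untreated replicate 1 or 2 or treated replicate 2 or 3 of that time, with values from -0.29 to -0.14 over all arrays left out. PAICS at 8 h, -0.22 (adjusted p = 0.0319), was lost without untreated replicate 1 or treated replicate 2 or 3, with values from -0.28 to -0.16. Both PAICS calls were also lost with only the arrays compared in the fit (adjusted p = 0.136 and 0.11), and the call at 4 h with no detection filter (adjusted p = 0.057). PPAT at 8 h was lost without untreated or treated replicate 1 or 3, with values from -0.34 to -0.25. The smaller rise of ADSL at 24 h was lost without replicate 1 of untreated cells at 0 or 24 h or replicate 2 of treated cells at 24 h, with values from -0.51 to -0.36. GMPS was the least stable: its rise in untreated cells at 8 h, 0.32 (adjusted p = 0.0408), ranged from 0.18 to 0.45 and was lost without replicate 1 or 3 of either time. Its rises in treated cells, 0.34 at 4 h and 0.33 at 8 h (adjusted p = 0.0422 and 0.0455), were lost in 5 and in 16 of the 24 repeats, and its smaller rise at 24 h in 9 of them, with values from -0.58 to -0.43.

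With each gene centred on its own mean over the 8 groups, the 10 genes averaged in untreated cells -0.58, 0.15, 0.48 and 0.73 at the 4 times and -0.80, -0.16, 0.089 and 0.10 in treated cells. Changes from 8 to 24 h were not tested. PFAS followed the average most closely (r = 0.98 over the 8 group means) and IMPDH2 least (r = 0.61). The non-member genes whose group means were most like this average were PPA1, the pyrophosphatase (r = 0.995), ACTL6A, COA4, NDUFAF8 and NME1 (r between 0.989 and 0.99). These r values describe 8 points that share the treatment and time structure, and carry no test. NME1, also on the salvage list below, was taken by its brightest probe. With MST-312, 1 of its other probes was higher, by 1.095 at 0 h and 0.886 at 24 h (adjusted p = 2.89e-07 and 4.51e-06, limma). Another differed by -0.419 and -0.753 (adjusted p = 0.000737 and 8.25e-07).

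Neighbouring pathways were described by lists. Of 4 measured genes around PRPP supply and the AMP branch (of 5 listed, ADSS2 not tested), 1 was lower with MST-312 at 24 h and none higher, a share near the 32.9% of all genes called lower. It was PRPSAP1, a PRPP synthetase-associated protein, with a difference of -0.84 ± 0.099 (adjusted p = 3.32e-07). Over 24 h of release, 2 of the 4 rose and 1 fell in untreated cells (29% and 3128 of 10246 of all genes). In treated cells 1 rose and 1 fell (24.5% and 26.5% of all genes). PRPSAP1 changed by -0.44 in untreated and -0.59 in treated cells (adjusted p = 0.000652 and 4.2e-05, limma). PRPS1, the other PRPP synthetase measured, rose by 0.84 in untreated and 0.65 in treated cells at 24 h (adjusted p = 9.55e-07 and 3.55e-05).

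Salvage and interconversion genes were mostly lower with MST-312 already at 0 h. Of 17 measured (of 22 listed), 10 were lower and 1 higher at 0 h (31.7% and 27.6% of all genes), and 14 were lower and 1 higher at 24 h (32.9% and 28.9%), with medians of -0.49 and -0.55 against -0.02 and -0.028 over all genes. APRT, which salvages adenine, differed by -1.52 ± 0.12 at 0 h and -1.69 ± 0.12 at 24 h (adjusted p = 9.26e-10 and 1.66e-10), and AK1, an adenylate kinase, by -1.93 and -1.65 (adjusted p = 1.08e-10 and 1.07e-09). NT5E, the ectonucleotidase CD73, was not detected with MST-312 at 24 h and was at least 4.59-fold higher in untreated cells, with, per treated array, whichever was higher of its own value and the lowest signal detected there (adjusted p = 4.33e-12). ADK, adenosine kinase, differed by -1.55 at 24 h with its brightest probe (adjusted p = 1.88e-12), while 1 of its other probes differed by 1.25 (adjusted p = 5.08e-05). Over 24 h of release, 8 of the 17 rose and 6 fell in untreated cells, with a median of 0.072. Of all genes 29% rose and 3128 of 10246 fell. In treated cells 7 rose and 9 fell (24.5% and 26.5% of all genes), with a median of -0.307. There NT5C2, of this list, changed by -1.26 (adjusted p = 1.13e-09, limma). HPRT1, which salvages hypoxanthine and guanine, rose by 1.18 in untreated and 1.25 in treated cells over 24 h (adjusted p = 4.87e-11 and 4.65e-11). Its means were lower in treated than in untreated cells, 10.15 against 10.98 at 0 h and 11.40 against 12.16 at 24 h. Another HPRT1 probe differed by -0.88 at 0 h and -0.805 at 24 h (adjusted p = 3.03e-06 and 8.51e-06).

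One-carbon genes, which supply the formyl groups used by GART and ATIC, were measured for 5 of 12 listed. All 5 rose in untreated cells at 24 h, with a median of 1.50, and 4 rose in treated cells, with a median of 0.83. Of all genes 29% and 24.5% rose, with medians of -0.025 and -0.018. Between the treatments, 2 of the 5 were higher and 1 lower with MST-312 at 0 h (27.6% and 31.7% of all genes). At 24 h none was higher and 4 were lower (28.9% and 32.9%). MTHFD1L and MTHFD2, of the mitochondrial folate pathway, were higher with MST-312 at 0 h by 0.95 and 0.90 (adjusted p = 1.62e-08 and 5.46e-08). MTHFD2 was lower at 24 h, with a difference of -0.28 (adjusted p = 0.0135). MTHFD1, of the cytosolic pathway, differed by -1.14 at 0 h and -1.31 at 24 h (adjusted p = 5.54e-06 and 7.98e-07). Of the 7 pyrimidine synthesis genes, all measured, 5 rose in untreated and 4 in treated cells over 24 h (29% and 24.5% of all genes), while 2 fell in treated cells (26.5% of all genes). At 24 h 6 were lower with MST-312 (32.9% of all genes), with a median of -0.60 against -0.028 over all genes. CTPS1, a CTP synthetase, rose by 1.76 and 1.11 (adjusted p = 8.09e-13 and 1.5e-09), and CAD, the enzyme of the first pyrimidine steps, by 1.13 and 0.78 (adjusted p = 4.44e-07 and 7.02e-05).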

How the data were processed

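Biotinylated cRNA was made from total RNA for Illumina arrays, per the labels' protocols. The file with raw values gives, per the file headers, each probe's intensity together with its detection p-value on every array. The authors' processed intensity values, from a normalization the labels and headers do not name, were an alternative. Probes were named through the platform annotation, which gives 1 symbol to 30113 probes, several to 8 and none to 17201.

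Raw intensities were background-corrected from the detection p-values with an offset of 16, quantile-normalised and log2-transformed (neqc, limma 3.58.1, R 4.3.3). A probe was kept where some group had it at a detection p under 0.05 on each of its 3 arrays (17882 probes), and the brightest kept probe stood for its gene. All 24 arrays entered 1 limma fit of 8 group means (16 residual and 3.78 prior degrees of freedom) and gave 13 comparisons: treatment at each time, release within each treatment, and the difference of release changes. P-values are two-sided and Benjamini-Hochberg adjusted over 10246 genes of a comparison, or over all kept probes or all genes with several probes where a probe or ratio is given. The fit was tested on data simulated with independent noise of each gene's own spread. That checks the fitting steps and not the arrays, since it holds no shared deviation between arrays. Between 34.3% and 38% of probes were detected per array; the number of arrays limits the precision.

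The members and lists were chosen with earlier results of these data known. Named were all members, MYC, up to 4 called genes of largest change per list at 0 h, at 24 h and in each 24 h release change, of which the text gives a part, and the 5 genes most like the members' mean profile. No list was tested as a set. Alternatives were the background correction, the normalization, the detection filter, the choice of probe, the variance model, the arrays fitted, a replicate block, and leaving out each array.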

Additional observations from a re-analysis of the deposited data

Results flagged for a closer look

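The results below met a rule for differences between the treatments: limma's test of the difference between the changes since 0 h, MST-312 minus untreated, passed an adjusted p of 0.05. At 4 h these differences were -0.51 for PPAT, -0.59 for GART and 0.93 for IMPDH1. At 8 h the difference was -0.70 for GART. At 24 h they were -0.75 for PRPS2, -0.67 for PPAT, -0.52 for GART, -0.53 for PFAS, -0.41 for PAICS, -0.43 for ADSL, -0.69 for IMPDH2 and -0.50 for GMPS. All are log2 values. The GART values belong to its brightest probe. The second GART probe gave 0.32, 0.044 and -0.17 at 4, 8 and 24 h (adjusted p = 0.285, 0.921 and 0.577).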

How the results depend on the processing

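Over the 10 members and 13 comparisons, the 10 alternatives other than leaving out arrays gave 1300 values, of which 1215 kept direction and side of the threshold, 22 were no longer called, 47 were newly called and 16 changed sign, 1 of them a call. That was GART at 0 h, -0.54, which was 0.065 with the mean of its kept probes. Of 3120 values with 1 array left out, 3026 kept both, 48 were no longer called, 21 were newly called and 25 changed sign. The median scaling moved the median of all genes in the comparisons between treatments to -0.14, -0.29, -0.26 and -0.17 at 0, 4, 8 and 24 h, and the members' medians to -0.35, -0.53, -0.61 and -0.79. It took the share of higher among all calls from 46.6% to 33.8%, 44.6% to 23.6%, 44.3% to 24.4% and 46.8% to 33.6% at these times. For untreated release at 4, 8 and 24 h it went from 50.9% to 62%, 48.4% to 60.8% and 48.7% to 59.9%, for treated release at 24 h from 48% to 60.3%, and for the differences of release changes at 4 and 8 h from 49.6% to 29.6% and 50% to 33.9%; cyclic loess took the last to 61.2%. The number of genes higher with median scaling was 1888, 1430 and 1419 at 0, 4 and 8 h between treatments (2833, 2716 and 2618), 1229 for treated release at 4 h (1851), and 530 and 535 for the differences at 4 and 8 h (1155 and 1032). Members higher at 4 h between treatments went from 1 to 0 with median scaling. For the differences at 4 h, the mean of kept probes left 0 members higher and 1 lower, from 1 and 2. For those at 8 h, members lower went from 1 to 3 without background correction, with the authors' processed values, and with the trended and robust prior, and to 2 with median scaling and with detection on all 24 arrays; with 1 array left out they ranged from 1 to 3, and members higher from 0 to 1. Skipping the background correction gave nearly the values the authors deposited, so these are not separate checks. The causes were not tested.

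Uncalled values that changed sign were, with median scaling, PAICS -0.088 and GMPS -0.091 at 0 h, IMPDH1 -0.27 and GMPS -0.14 at 4 h, IMPDH2 -0.14 and GMPS -0.21 at 8 h between treatments, and ADSL -0.042 and GMPS -0.044 at 4 h and GMPS -0.12 at 8 h in the differences of changes. With cyclic loess they were PAICS -0.041 at 0 h, and in the differences PFAS 0.021 and ATIC 0.042 at 4 h and ADSL 0.022 and ATIC 0.082 at 8 h; with the mean of kept probes, IMPDH1 -0.018 at 4 h. With 1 array left out, values near 0 that changed sign ranged from -0.16 to 0.032 for PPAT at 0 h, -0.10 to 0.016 for ADSL at 4 h, -0.041 to 0.23 for GMPS at 8 h, and -0.19 to 0.027 for ATIC and -0.11 to 0.054 for IMPDH2 at 24 h between treatments. In the differences of changes they ranged at 4 h from -0.082 to 0.036 for PFAS, -0.018 to 0.099 for ADSL, -0.13 to 0.013 for ATIC and -0.012 to 0.23 for GMPS, at 8 h from -0.17 to 0.096 for PRPS2, -0.066 to 0.044 for ATIC and -0.13 to 0.14 for GMPS, and at 24 h from -0.016 to 0.20 for ATIC.

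Arrays with the same replicate number in different groups had a median correlation of deviations of 0.167, against -0.092 for arrays with other numbers. Of the same-numbered pairs, 65 of 84 were above 0.1 and the lowest was -0.197. Of the arrays, 20 of 24 correlated best with their own number, a hint from the data and not from the design. As not every pair passed 0.1, the numbers were not taken to pair the arrays. With the replicate number as a block, members higher at 8 h between treatments went from 0 to 1 (IMPDH2) and members lower in the difference at 8 h from 1 to 3, and the counts of members in the other comparisons stayed within 1.5 times.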
